A study of Mus musculus with 16 samples.

Results

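Fatty acid oxidation enzymes were followed as a set of 38 genes, taken as a fixed list of symbols for mitochondrial and peroxisomal activation and oxidation of fatty acids and matched to the Ensembl identifiers of the count table. All 38 symbols were found among 56980 identifiers, and all 38 passed the filter on low counts that left 17972 genes for testing. The list holds 4 carnitine acyltransferases, 5 acyl-CoA synthetases, 8 acyl-CoA dehydrogenases, 3 electron transfer genes, 5 genes of the later mitochondrial steps, 5 auxiliary enzymes for unsaturated acids, 6 peroxisomal genes and 2 thioesterases. This set and the other gene lists below were chosen with earlier results of these data known. Their counts and medians set against all genes are therefore descriptive and not independent evidence.

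RNA came from the kidney cortex of male C57Bl/6J mice with a floxed Degs1 gene, which encodes dihydroceramide desaturase, in 4 groups of 4 libraries. The controls were Degs1fl/fl littermates (fl/fl). The knockouts were Degs1iGKO mice (iGKO), in which Rosa26-CreERT2, a tamoxifen-activated Cre recombinase made in most cell types, deletes Degs1 throughout the body. Both genotypes received tamoxifen at 9 weeks of age (3 mg a day for 5 days) and were operated at 12 weeks, either as sham or with bilateral ischaemia-reperfusion injury (IRI), here 28 min of clamped renal vessels and 24 h of reperfusion. Groups are named by genotype and operation, and a library by its group and replicate number. The labels name separate samples but do not say how the animals of a group were related, so p-values measure the spread between these samples.

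Fatty acid oxidation supplies most of the ATP of the proximal tubule, the segment that dominates the kidney cortex. A fatty acid is first joined to coenzyme A, long chains then enter the mitochondrion as carnitine esters, and each turn of the cycle shortens the chain by dehydrogenation, hydration, a further dehydrogenation and thiolysis. Electrons of the first dehydrogenation pass through the electron transfer flavoprotein to ubiquinone, while peroxisomes shorten very long and branched chains.

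Total counts were between 12704273 and 18816343 per library. Degs1 stood at 113, 84.0, 98.7 and 105 CPM (counts-per-million values with TMM scaling) in fl/fl sham 1 to 4 and at 88.8, 115, 133 and 113.5 CPM in fl/fl IRI 1 to 4. In iGKO it was at 65.3, 50.7, 71.7 and 40.2 CPM after sham and 58.4, 54.8, 44.7 and 59.8 CPM after IRI, so every iGKO library was below every fl/fl library given the same operation. The counts are per gene and do not separate the floxed part. The summed level of 25 proximal tubule markers was 41930 to 47960 CPM in fl/fl sham and 40420 to 44230 CPM in iGKO sham, and no proximal marker was at 0 in all libraries. Of all the cell type markers only Cyp11b2 (adrenal cortex) and Myh4 (skeletal muscle) were at 0 in all 16. A pair of libraries stood apart from their groups, each by 1 measure. In fl/fl IRI 1 the 9 injured tubule markers summed to 3702 CPM, against 11270, 15490 and 9559 CPM in fl/fl IRI 2 to 4. In iGKO sham 4 mitochondrially encoded genes took 0.443% of counts, against 2.05% to 6.48% in the other libraries. Counts of called members, and the values these libraries move most, are given with and without them. fl/fl IRI 1 was picked by its injury marker sum and iGKO sham 4 by its mitochondrial share. Fits without fl/fl IRI 1 keep only the fl/fl IRI libraries with higher injury sums, so their counts are not an unbiased check. By other measures other fl/fl IRI libraries differed too. fl/fl IRI 3 had a proximal tubule sum of 12280 CPM, against 34790, 22270 and 22860 CPM in fl/fl IRI 1, 2 and 4. Members called lower in fl/fl after IRI were 11 with all libraries. They were 16 without fl/fl IRI 1, and 5 and 5 without fl/fl IRI 3 or 4. By single marker lists, iGKO IRI 3 had the highest adipocyte sum (6 genes, 1284 CPM against 17.7 to 586 CPM in the other 15 libraries) and iGKO IRI 2 the highest fibroblast and mural sum (8 genes, 6615 CPM against 574.5 to 2031 CPM).

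In sham kidney the set summed to a median of 11340 CPM in fl/fl (range 9666 to 11950) and 11300 CPM in iGKO (9455 to 12300). Per kilobase of exon, which allows a rough comparison between genes, Acsm2 had the highest mean level in fl/fl sham at 433 CPM per kb. The length joins all annotated exons of a gene, whether or not they are used in kidney, so the ranking depends on the annotation. Acsm2 is a medium-chain acyl-CoA synthetase that also activates benzoate and related acids for conjugation to glycine. It was followed by the peroxisomal thiolase gene Acaa1b at 164, Pecr at 148, Acadm at 146 and Acadvl at 139.9 CPM per kb. The lowest was Acad12 at 7.25 CPM per kb. The long-chain pathway genes Cpt1a and Cpt2 stood at 57.8 and 61.7 CPM per kb.

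No member was called between the genotypes after sham. By edgeR's quasi-likelihood test 0 of 38 were called, that is past an adjusted p of 0.05, in either direction, and 0 members had an unadjusted p below 0.05. DESeq2 also called 0. At that unadjusted threshold 103 of the 17972 genes tested were lower in iGKO and 107 higher. Of all genes tested 0% were called, and even Degs1, lower in every iGKO sham library (-0.815 on the log2 scale, unadjusted p = 0.000317), had an adjusted p of 0.9999. The absence of calls therefore does not show that members did not differ. Of all genes 0.874% had every iGKO sham library below every fl/fl sham library and 1.05% the reverse. The corresponding counts among members were 0 and 0. The median log2 difference of iGKO minus fl/fl was 0.04 over the members and 0.01 over all genes, with 16 members below 0 and 22 above. Without iGKO sham 4 the member median was -0.01, with 19 on each side of 0, and 7 members changed sign. Hsd17b4, at 0.29, and Acsm3, at -0.59, had the smallest unadjusted p-values, 0.131 and 0.144.

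**Figure D1:**
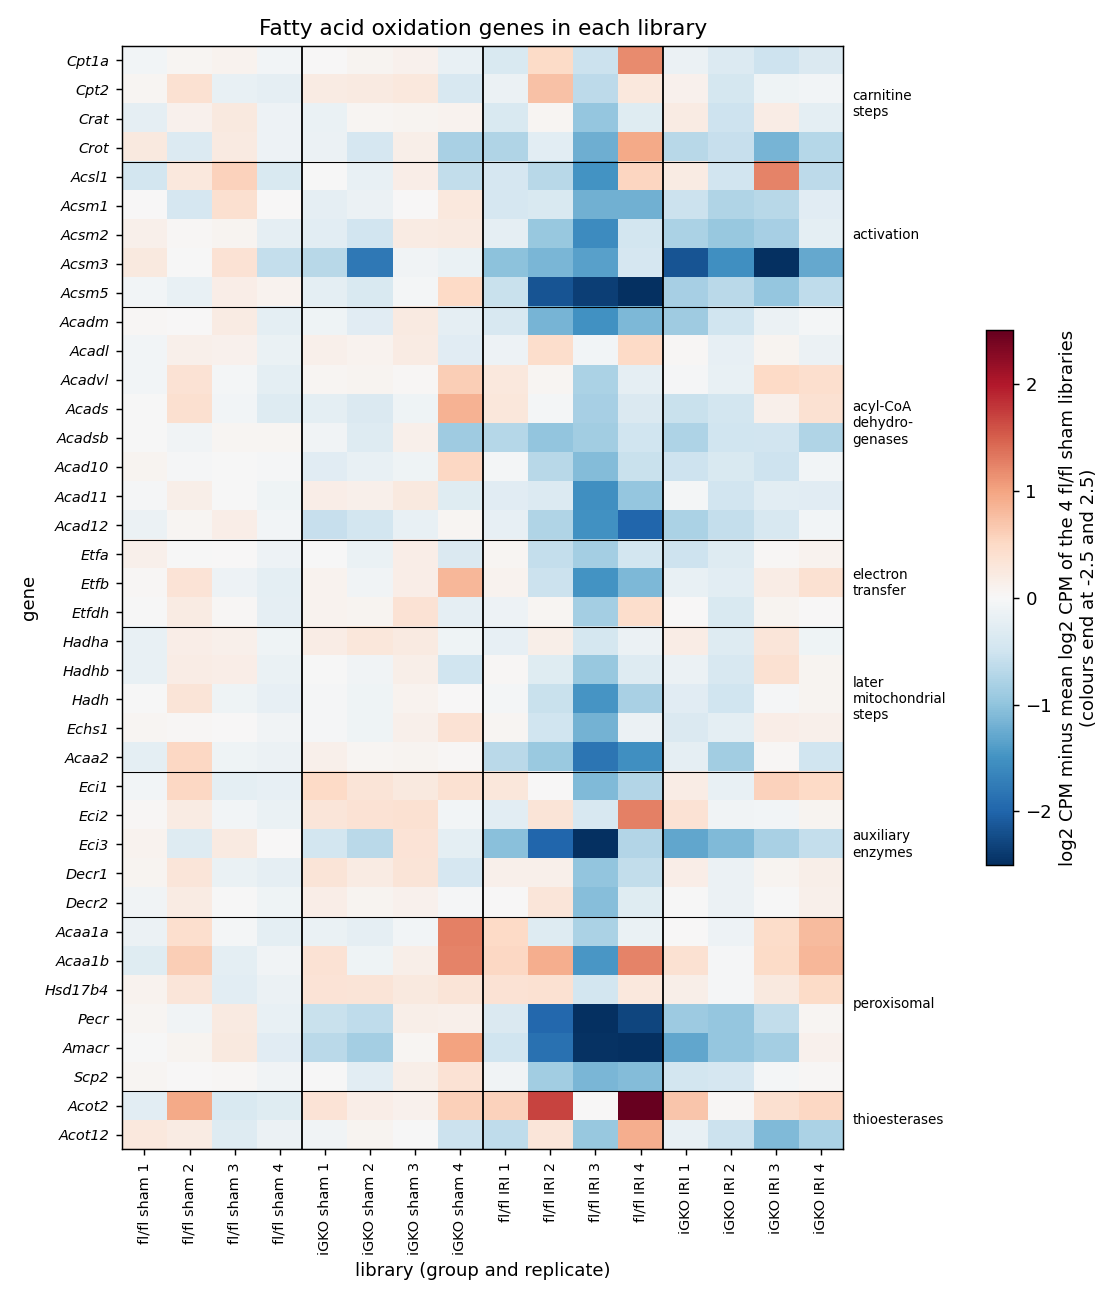
Level of each of the 38 fatty acid oxidation genes (rows, grouped by role) in each of the 16 libraries (columns), as log2 CPM minus the mean log2 CPM of the 4 fl/fl sham libraries. Colours end at -2.5 and 2.5. fl/fl IRI 3 holds the lowest level of 29 of the 38 genes, and fl/fl IRI 4 holds both the highest level of 8 and strongly lowered levels of Acsm5, Pecr and Amacr.

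After IRI, 11 of the 38 genes fell and 1 rose in fl/fl kidney. The 11 were Acsm1, Acsm5, Acadm, Acadsb, Acad11, Acad12, Acaa2, Eci3, Pecr, Amacr and Scp2, and the 1 that rose was Acot2. Of all genes tested 7.01% were called lower and 8.46% higher. Every fl/fl IRI library lay below every fl/fl sham library for 12 members and above for 0, against 9.82% and 9.65% of all genes. The median log2 change was -0.37 over the members and 0.01 over all genes, with 30 members below 0 and 8 above. The p-values in every comparison use the spread pooled over all 4 groups. With fl/fl fitted alone 6 members were called lower, against 3.61% of all genes. Leaving out fl/fl sham 1, 2, 3 or 4 gave 6, 7, 5 and 6 members called lower (against 4.05%, 5.18%, 3.48% and 3.86% of all genes), and leaving out fl/fl IRI 3 or 4 gave 5 and 5 (against 3.07% and 4.17%). With both libraries that stood apart left out 17 were called lower and 1 higher, against 14.2% and 16% of all genes. Without fl/fl IRI 1 the count was 16, with 11.6% of all genes called lower and 11.9% higher.

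Markers of several tubule segments fell in the same comparison. Of 25 proximal tubule markers 13 were called lower and 0 higher, with a median log2 change of -1.22, and their sum was 12280 to 34790 CPM in fl/fl IRI. The count was 21 of 25 without fl/fl IRI 1. Of 8 thick ascending limb markers 4 were called lower (median -1.19), and of 7 markers of the distal convoluted and connecting tubule 3 were (median -1.12), with 0 higher in both lists. Adipocyte markers had 0 of 6 called and a median of -2.10. All 9 injured tubule markers rose, with a summed level of 3702 to 15490 CPM against 794 to 1515 CPM in fl/fl sham. All 7 tested neutrophil markers rose, and the list of 8 summed to 25.1 to 225.4 CPM against 5.45 to 12.1 CPM. The part of these markers in the results on the members was not tested. In bulk RNA, fewer cells of a type and less RNA per cell cannot be told apart.

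Activation joins the fatty acid to coenzyme A, and 2 of its 5 genes fell. The Acsm genes encode mitochondrial medium-chain acyl-CoA synthetases. Acsm5 stood at 155, 144, 184 and 173 CPM in fl/fl sham 1 to 4 and at 111, 36.4, 31.8 and 19.3 CPM in fl/fl IRI 1 to 4. Acsm5 in iGKO kidney was at 137.5, 126, 158 and 230.3 CPM after sham and 91.8, 102, 83.3 and 104.5 CPM after IRI. All fl/fl IRI libraries were below all fl/fl sham libraries, and fl/fl IRI 2, 3 and 4 were lower than all 4 iGKO IRI libraries. Acsm5 fell by 1.72 ± 0.38 (SE) on the log2 scale (adjusted p = 0.0084) and kept its call in each of the 22 alternatives. The fall was 2.49 on the log2 scale without fl/fl IRI 1. Acsm1 stood at 118, 88.1, 154 and 118 CPM in fl/fl sham 1 to 4 and at 87.8, 90.0, 51.1 and 50.7 CPM in fl/fl IRI 1 to 4. Acsm1 in iGKO kidney was at 100.4, 106, 118 and 140.3 CPM after sham and 80.4, 69.8, 72.5 and 96.0 CPM after IRI. The fl/fl groups overlapped for Acsm1, since fl/fl sham 2 was below fl/fl IRI 2. Acsm1 fell by 0.77 ± 0.21 (SE) on the log2 scale (adjusted p = 0.0237). The Acsm1 call was lost without fl/fl sham 1, 3 or 4 (0.0509, 0.0862 and 0.0517) or fl/fl IRI 3 or 4 (0.08 and 0.0692), and with fl/fl alone in the fit (0.0752), adjusted p in parentheses. Acsm2 and Acsm3 had changes of -0.72 ± 0.26 and -0.99 ± 0.39 (adjusted p = 0.0722 and 0.0933). Acsm2 was called lower without fl/fl IRI 1 (adjusted p = 0.0184) and by DESeq2 (0.0319), and Acsm3 with fl/fl alone in the fit (0.0437). Acsl1, the long-chain synthetase, was at -0.40 ± 0.42.

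No carnitine step was called. Cpt1a, which loads long-chain acyl groups onto carnitine at the outer mitochondrial membrane, stood at 420.0, 458, 466 and 423 CPM in fl/fl sham 1 to 4 and at 338, 612, 306 and 997 CPM in fl/fl IRI 1 to 4. Of the latter fl/fl IRI 2 and 4 lay above the sham range and fl/fl IRI 1 and 3 below it. The change was 0.35 ± 0.27 (SE, log2). Cpt2, which returns the acyl group to coenzyme A inside the mitochondrion, changed by 0.12 ± 0.24. Crat, the carnitine acetyltransferase, and Crot, which makes carnitine esters of peroxisomal products, had values of -0.36 ± 0.20 and -0.10 ± 0.35. Crot was at -0.72 without fl/fl IRI 4 (adjusted p = 0.081). The 4 genes thus lay on both sides of 0, with a median of 0.01.

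Promoters of Acsm5, Acadm, Acadsb and Eci3, whose calls were kept in all alternatives, and of Acot2, the member that rose, are shown to give the sequence context of genes that moved. RefSeq windows on GRCm38.p6 were matched for 33 members. The members without one were Crat, Acaa2, Decr1, Hsd17b4 and Amacr. Each sequence runs 5′ to 3′ on the strand of its gene and covers the 250 bases before the annotated start. Capitals mark matches, on either strand, to AGGTCA, the core motif of nuclear receptors such as PPAR-alpha, to the GC box GGGCGG, to the CCAAT box and to the TATA box TATAAA. The windows are chr7:119526015-119526264 (plus strand) for Acsm5, chr3:153944644-153944893 (minus) for Acadm, chr7:131410351-131410600 (plus) for Acadsb, chr13:34963810-34964059 (minus) for Eci3 and chr12:83987611-83987860 (plus) for Acot2.
Acsm5: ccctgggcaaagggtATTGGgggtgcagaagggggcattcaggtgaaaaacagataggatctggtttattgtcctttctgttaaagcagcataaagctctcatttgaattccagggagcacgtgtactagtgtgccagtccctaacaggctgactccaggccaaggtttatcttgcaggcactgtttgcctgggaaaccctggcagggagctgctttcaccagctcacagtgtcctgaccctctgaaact
Acadm: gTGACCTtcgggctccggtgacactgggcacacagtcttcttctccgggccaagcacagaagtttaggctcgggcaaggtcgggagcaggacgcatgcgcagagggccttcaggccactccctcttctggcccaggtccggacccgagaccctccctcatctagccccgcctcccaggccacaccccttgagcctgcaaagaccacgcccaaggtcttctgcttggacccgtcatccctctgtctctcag
Acadsb: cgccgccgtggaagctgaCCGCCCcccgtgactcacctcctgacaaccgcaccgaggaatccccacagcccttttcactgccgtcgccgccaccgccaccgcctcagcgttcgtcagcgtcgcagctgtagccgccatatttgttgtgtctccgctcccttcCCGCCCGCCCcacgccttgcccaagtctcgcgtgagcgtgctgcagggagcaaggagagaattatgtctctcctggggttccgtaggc
Eci3: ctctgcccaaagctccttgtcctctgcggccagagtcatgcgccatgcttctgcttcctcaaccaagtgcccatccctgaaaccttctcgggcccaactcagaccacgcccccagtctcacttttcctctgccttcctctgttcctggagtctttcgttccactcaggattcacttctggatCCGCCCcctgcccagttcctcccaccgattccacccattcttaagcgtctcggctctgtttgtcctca
Acot2: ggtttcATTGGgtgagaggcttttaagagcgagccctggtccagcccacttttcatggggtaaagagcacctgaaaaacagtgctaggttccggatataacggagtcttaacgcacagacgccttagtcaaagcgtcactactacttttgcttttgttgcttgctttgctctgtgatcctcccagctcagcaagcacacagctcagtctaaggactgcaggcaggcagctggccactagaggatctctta

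Acadm had 1 AGGTCA match at the far end of its window, Acadsb had 3 GC boxes of which 1 pair overlapped, Eci3 had 1 GC box, and Acsm5 and Acot2 had 1 CCAAT match each. Over all 33 members GGGCGG was present in 20 genes (60.6%, against 35.4% of 27025 genes) and CCAAT in 16 (48.5% against 37.5%). AGGTCA was present in 7 (21.2% against 15.8%) and TATAAA in 1 (3.03% against 14.3%), which was Acsm2. A gene was counted if any of its windows held the motif. Median GC content was 58.4% in windows of called-lower members, 58.8% in those of other members and 52.4% in all windows. The part of GC content in these shares was not tested. Among the 9 called-lower members with a window, 5 held GGGCGG, 4 held CCAAT, 3 held AGGTCA and 0 held TATAAA. The direct repeat of AGGTCA with 1 base between the copies (AGGTCANAGGTCA), the arrangement bound by PPAR with its partner RXR, had no exact match in a member window and was present in 0.0407% of all genes. With up to 2 mismatches it was found in 3 members (9.09% against 3.72%), none of them called. They are shown 5′ to 3′ in the direction of the repeat, with matching letters in capitals and mismatches and the spacer in lower case. The match began 83 bases before the start in Echs1 (chr7:140116492-140116504), 77 in Etfa (chr9:55512308-55512320) and 110 in Acot12 (chr13:91741411-91741423), on the gene's strand in Echs1 and on the opposite strand in the other two. The repeat contains AGGTCA, so matches to both can overlap. These matches are a description of letters in a window and nothing was read from them about binding.
Echs1: AGGTCAcgGGTCc
Etfa: AGGgCAaAGGTaA
Acot12: AGGTgAgAGGTCA

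Acyl-CoA dehydrogenases catalyse the first oxidation of each turn, and 4 of 8 fell. Acadm encodes the medium-chain enzyme. Acadm stood at 581, 570.4, 657 and 479.6 CPM in fl/fl sham 1 to 4 and at 428, 254, 199.7 and 262 CPM in fl/fl IRI 1 to 4. Acadm in iGKO kidney was at 528, 469.8, 662 and 487 CPM after sham and 309, 401, 513 and 551 CPM after IRI. The highest fl/fl IRI library, fl/fl IRI 1, was below the lowest fl/fl sham library. Acadm fell by 1.00 ± 0.23 (SE) on the log2 scale (adjusted p = 0.00965). Acadsb stood at 98.3, 92.3, 102 and 101 CPM in fl/fl sham 1 to 4 and at 59.8, 49.8, 53.8 and 70.1 CPM in fl/fl IRI 1 to 4. Acadsb in iGKO kidney was at 93.0, 78.8, 108 and 53.0 CPM after sham and 57.8, 69.5, 70.3 and 58.4 CPM after IRI. Acadsb encodes the short, branched-chain enzyme, which also serves isoleucine breakdown. Its fl/fl IRI and iGKO IRI levels covered nearly the same range, and iGKO sham 4 was as low as the IRI libraries. Acadsb fell by 0.75 ± 0.18 (SE) on the log2 scale (adjusted p = 0.0114). Both calls were kept in each of the 22 alternatives.

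Acad11 and Acad12, of the same family, also fell, with less secure calls. Acad11 stood at 307, 349.6, 311 and 293 CPM in fl/fl sham 1 to 4 and at 259, 249, 108 and 161 CPM in fl/fl IRI 1 to 4. Acad11 in iGKO kidney was at 354, 342, 372 and 255 CPM after sham and 302, 227, 262 and 258 CPM after IRI. The fl/fl groups did not overlap, and fl/fl IRI 3 and 4 were the lowest of all 16 libraries. Acad11 fell by 0.70 ± 0.22 (SE) on the log2 scale (adjusted p = 0.0423). The Acad11 call was lost without fl/fl sham 1, 2, 3 or 4 (0.0775, 0.0936, 0.0837 and 0.0732), iGKO sham 1, 2 or 3 (0.0536, 0.0545 and 0.0508), fl/fl IRI 3 or 4 (0.102 and 0.111) or iGKO IRI 3 or 4 (0.0543 and 0.0503), and with no filter on low counts (0.0522), and with fl/fl alone in the fit (0.105), adjusted p in parentheses. Acad12 stood at 42.7, 48.6, 52.8 and 44.8 CPM in fl/fl sham 1 to 4 and at 40.9, 27.8, 16.4 and 11.9 CPM in fl/fl IRI 1 to 4. Acad12 in iGKO kidney was at 31.6, 34.2, 41.7 and 48.9 CPM after sham and 27.3, 31.0, 35.6 and 44.7 CPM after IRI. Here fl/fl IRI 1 was just below the lowest sham library and fl/fl IRI 3 and 4 were far below it. Acad12 fell by 0.96 ± 0.29 (SE) on the log2 scale (adjusted p = 0.0335). The Acad12 call was lost without fl/fl sham 1, 2, 3 or 4 (0.0562, 0.0632, 0.0838 and 0.0625) or fl/fl IRI 3 or 4 (0.105 and 0.0777), and with fl/fl alone in the fit (0.0901), adjusted p in parentheses. Of the 50-base stretches in the exons of Acad12, 17.3% also occur in another gene, mostly in Acad10 (15.7%), so reads of the pair can be mixed.

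The other 4 dehydrogenases were not called. Acadl, the long-chain enzyme, was the only one of the 8 with a positive value, 0.21 ± 0.16. Acadvl, for very long chains, had -0.15 ± 0.23, Acads, for short chains, -0.21 ± 0.30, and Acad10 -0.55 ± 0.21 (adjusted p = 0.0821). Acad10 was called lower without fl/fl IRI 1 (adjusted p = 0.00941) and without iGKO sham 4 (0.0370). Electron transfer had 0 of 3 genes called. Etfa and Etfb, the subunits of the flavoprotein, changed by -0.42 ± 0.19 and -0.66 ± 0.29, and Etfdh, which hands the electrons to ubiquinone, by -0.06 ± 0.21. Without fl/fl IRI 1 Etfa and Etfb were called lower (adjusted p = 0.0160 and 0.0105).

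Of the 5 genes for the later mitochondrial steps, Acaa2, the thiolase that releases acetyl-CoA, was called. Acaa2 stood at 157, 265, 172 and 168 CPM in fl/fl sham 1 to 4 and at 117, 98.2, 52.5 and 64.6 CPM in fl/fl IRI 1 to 4. Acaa2 in iGKO kidney was at 204, 193, 195.5 and 189.7 CPM after sham and 159.6, 101, 189 and 132.5 CPM after IRI. All 4 fl/fl IRI libraries were below all fl/fl sham libraries, whose highest value came from fl/fl sham 2. Acaa2 fell by 1.20 ± 0.25 (SE) on the log2 scale (adjusted p = 0.00533), the smallest adjusted p among the members, and the call was kept in each of the 22 alternatives. Hadha and Hadhb, the subunits of the trifunctional protein for long chains, had -0.15 ± 0.17 and -0.36 ± 0.21. Hadh, the dehydrogenase for shorter hydroxyacyl chains, had -0.65 ± 0.23 (adjusted p = 0.0628), was called lower without fl/fl IRI 1 (0.00441) and was called lower by DESeq2 (0.0320). Echs1, the short-chain hydratase, had -0.37 ± 0.21.

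Auxiliary enzymes move or reduce double bonds of unsaturated acids, and 1 of 5 fell. Eci3 encodes an enoyl-CoA isomerase. Eci3 stood at 161, 123, 178 and 153 CPM in fl/fl sham 1 to 4 and at 73.8, 38.6, 25.6 and 91.2 CPM in fl/fl IRI 1 to 4. Eci3 in iGKO kidney was at 110.2, 95.5, 192 and 129 CPM after sham and 61.9, 71.2, 86.6 and 101 CPM after IRI. fl/fl IRI 2 and 3 were lower than every other library. Eci3 fell by 1.42 ± 0.32 (SE) on the log2 scale (adjusted p = 0.00904) and was called in each of the 22 alternatives. Of its 50-base exon stretches 14.1% also occur elsewhere, 8.70% in Eci2. Eci2 had the opposite sign to the rest of its group, 0.38 ± 0.27, and stood at 71.6, 107, 64.8 and 205 CPM in fl/fl IRI 1 to 4, so that only fl/fl IRI 4 was well above the sham maximum of 99.5 CPM. Eci1 had -0.31 ± 0.26, and the dienoyl-CoA reductases Decr1 (mitochondrial) and Decr2 (peroxisomal) had -0.27 ± 0.23 and -0.18 ± 0.20.

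Peroxisomal genes split, with 3 of 6 called lower. Pecr encodes a peroxisomal reductase of trans-2-enoyl-CoA, a reaction of chain elongation rather than oxidation. Pecr stood at 232.5, 209, 260.4 and 196 CPM in fl/fl sham 1 to 4 and at 173, 57.1, 31.5 and 45.5 CPM in fl/fl IRI 1 to 4. Pecr in iGKO kidney was at 152, 145, 248 and 244.5 CPM after sham and 118, 115, 145 and 231 CPM after IRI. fl/fl IRI 2, 3 and 4 were below every other library, while fl/fl IRI 1 was nearer to the fl/fl sham libraries. Pecr fell by 1.55 ± 0.41 (SE) on the log2 scale (adjusted p = 0.0193). The Pecr call was lost without fl/fl sham 3 (0.053) or fl/fl IRI 2, 3 or 4 (0.0524, 0.0564 and 0.0598), and with fl/fl alone in the fit (0.0624), adjusted p in parentheses. The fall was 2.33 on the log2 scale without fl/fl IRI 1.

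Amacr encodes the racemase that makes branched acyl-CoAs fit for oxidation. Amacr stood at 177, 185.5, 210.2 and 146 CPM in fl/fl sham 1 to 4 and at 127, 48.8, 32.2 and 23.3 CPM in fl/fl IRI 1 to 4. Amacr in iGKO kidney was at 112, 98.6, 183 and 358 CPM after sham and 71.9, 91.2, 98.4 and 193 CPM after IRI. The iGKO sham values ran from below all fl/fl sham libraries to far above them in iGKO sham 4, and fl/fl IRI 2, 3 and 4 were the lowest of all. Amacr fell by 1.64 ± 0.49 (SE) on the log2 scale (adjusted p = 0.0333). The Amacr call was lost without fl/fl sham 1, 2, 3 or 4 (0.0624, 0.0589, 0.0782 and 0.0535) or fl/fl IRI 2, 3 or 4 (0.074, 0.101 and 0.0894), and with fl/fl alone in the fit (0.0533), adjusted p in parentheses. The fall was 2.37 on the log2 scale without fl/fl IRI 1. Scp2 stood at 434, 419, 423 and 393 CPM in fl/fl sham 1 to 4 and at 389.9, 229, 189 and 197 CPM in fl/fl IRI 1 to 4. Scp2 in iGKO kidney was at 417, 347, 459 and 534 CPM after sham and 304, 312, 404 and 427 CPM after IRI. Scp2 encodes a sterol carrier protein whose longer form is the thiolase for branched chains. fl/fl IRI 1 lay only just below the lowest fl/fl sham library. Scp2 fell by 0.73 ± 0.21 (SE) on the log2 scale (adjusted p = 0.0305). The Scp2 call was lost without fl/fl sham 1, 2, 3 or 4 (0.0684, 0.057, 0.069 and 0.0568) or fl/fl IRI 2, 3 or 4 (0.0691, 0.0959 and 0.0857), and with fl/fl alone in the fit (0.0725), adjusted p in parentheses. Scp2 shares 29.7% of its 50-base exon stretches with the pseudogene Scp2-ps2.

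The thiolase genes Acaa1a and Acaa1b and the bifunctional enzyme gene Hsd17b4 were not called, with -0.14 ± 0.33, 0.55 ± 0.42 and 0.16 ± 0.18. Acaa1b and Hsd17b4 were thus of the opposite sign to the rest of the group. Acaa1b stood at 444.5, 583.5, 114 and 737 CPM in fl/fl IRI 1 to 4, above the sham mean of 322 CPM in all but fl/fl IRI 3. It shares 30.5% of its exon stretches with Acaa1a.

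Acot2, a mitochondrial thioesterase that frees fatty acids from coenzyme A, was the member that rose. Acot2 stood at 42.5, 99.1, 39.4 and 41.4 CPM in fl/fl sham 1 to 4 and at 76.0, 165, 51.4 and 286 CPM in fl/fl IRI 1 to 4. Acot2 in iGKO kidney was at 65.3, 57.5, 55.1 and 77.0 CPM after sham and 83.1, 52.6, 67.7 and 73.7 CPM after IRI. The fl/fl groups overlapped, because fl/fl sham 2 was high and fl/fl IRI 3 was near the other sham libraries, and fl/fl IRI 4 was the highest of all 16. Acot2 rose by 1.38 ± 0.42 (SE) on the log2 scale (adjusted p = 0.0361). The Acot2 call was lost without fl/fl sham 1, 3 or 4 (0.0975, 0.106 and 0.102) or fl/fl IRI 2 or 4 (0.0696 and 0.169), and with fl/fl alone in the fit (0.11), adjusted p in parentheses. The rise was 0.81 on the log2 scale without fl/fl IRI 4. Acot2 shares 24.5% of its exon stretches with Acot1, so the reads of this pair can be mixed, and Acot1 itself was at 0.99 ± 0.47 (adjusted p = 0.167). Acot12, a cytosolic enzyme for acetyl-CoA, had 0.07 ± 0.32. Among the members that were not called, Etfb (44.8%), Acsm3 (34.0%) and Acadvl (26.9%) also share much exon sequence with other genes.

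**Figure D2:**
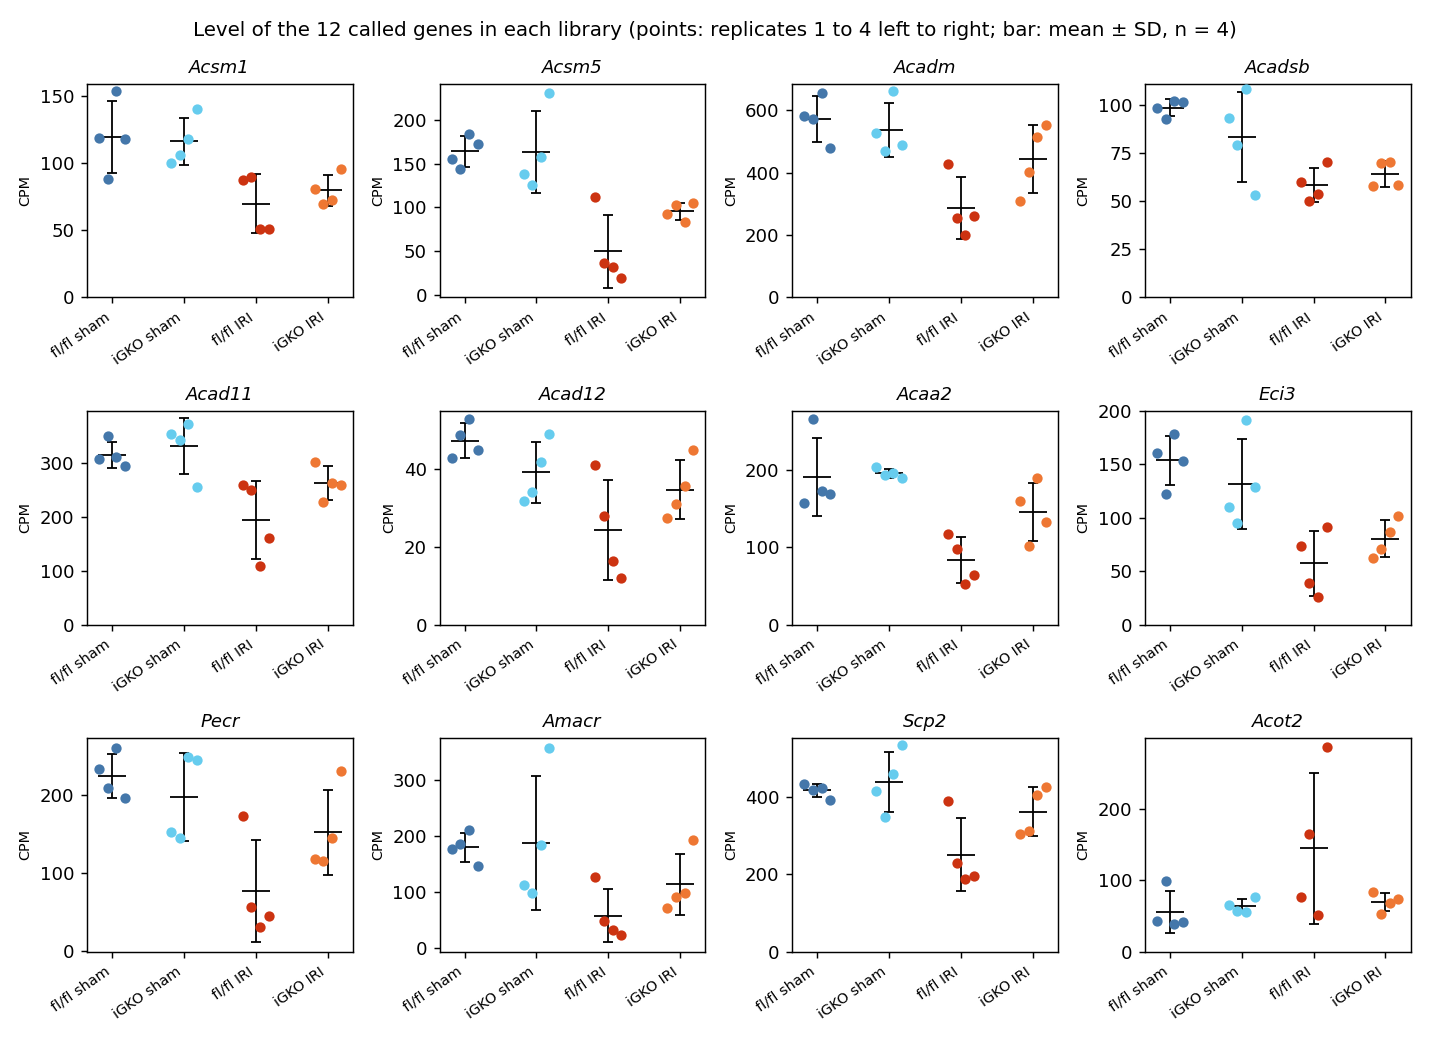
Level in CPM (y axis, linear) of the 12 genes called in fl/fl IRI against fl/fl sham, by group. Points are libraries, replicates 1 to 4 from left to right, and bars are mean ± SD (n = 4). For 10 of the 12 the fl/fl IRI and fl/fl sham points do not overlap, and Acsm1 and Acot2 are the exceptions.

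In iGKO kidney no member was called after IRI, in either direction, where 0% of all genes were called. Unadjusted p-values were below 0.05 for 5 members, all lower (Acsm1, Acsm2, Acsm3, Acadsb and Eci3), and DESeq2 called 0. At that unadjusted threshold 452 of the 17972 genes tested were lower and 693 higher. The groups did not overlap for 3 members, all lower: Acsm1, Acsm5 and Acaa2. Among all genes 2.76% had no overlap in the lower and 2.24% in the higher direction. The median log2 change was -0.19 over the members and -0.02 over all genes, and 35 members were below 0. The 3 above 0 were Acsl1 at 0.42 ± 0.42, Acot2 at 0.12 ± 0.41 and Hadhb at 0.10 ± 0.21. Acsl1 was at 659 CPM in iGKO IRI 3 against 320, 201 and 176 CPM in iGKO IRI 1, 2 and 4, and its value was -0.13 without that library. Adipocyte markers summed to 1284 CPM in the same library, against 27.2, 205 and 72.2 CPM in the other 3, and their part in the Acsl1 value was not tested. Without iGKO sham 4, 7 members were above 0 and 6 changed sign, Hadhb among them, while the member median was -0.18 and 0 were called.

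The synthetase gene Acsm3 had the most negative value in iGKO, -1.33 ± 0.39 (adjusted p = 0.554). It stood at 202, 94.6, 306 and 288 CPM in iGKO sham 1 to 4 and at 72.6, 112.5, 34.5 and 134 CPM in iGKO IRI 1 to 4, and the groups overlapped because of iGKO sham 2. For the genes called in fl/fl the iGKO values were -0.77 ± 0.37 for Acsm5, -0.71 ± 0.32 for Eci3, -0.72 ± 0.48 for Amacr and -0.42 ± 0.24 for Acaa2. They were -0.27 ± 0.23 for Acadm, -0.37 ± 0.40 for Pecr and -0.17 ± 0.28 for Acad12. Acsm1, whose groups did not overlap, had -0.55 ± 0.21 (unadjusted p = 0.0208), and Acadsb, Acad11 and Scp2 had -0.38 ± 0.18, -0.33 ± 0.22 and -0.28 ± 0.21. The Amacr value was -0.19 ± 0.46 without iGKO sham 4, the library in which Amacr stood at 358 CPM, and that of Acsm5 was then -0.54 ± 0.39. Proximal tubule markers in this comparison had 0 of 25 called, a median of -0.43 and a sum of 28240 to 33290 CPM in iGKO IRI. Thick ascending limb markers had 0 of 8 called and a median of -0.25, and injured tubule markers 0 of 9 and 0.55.

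**Figure D3:**
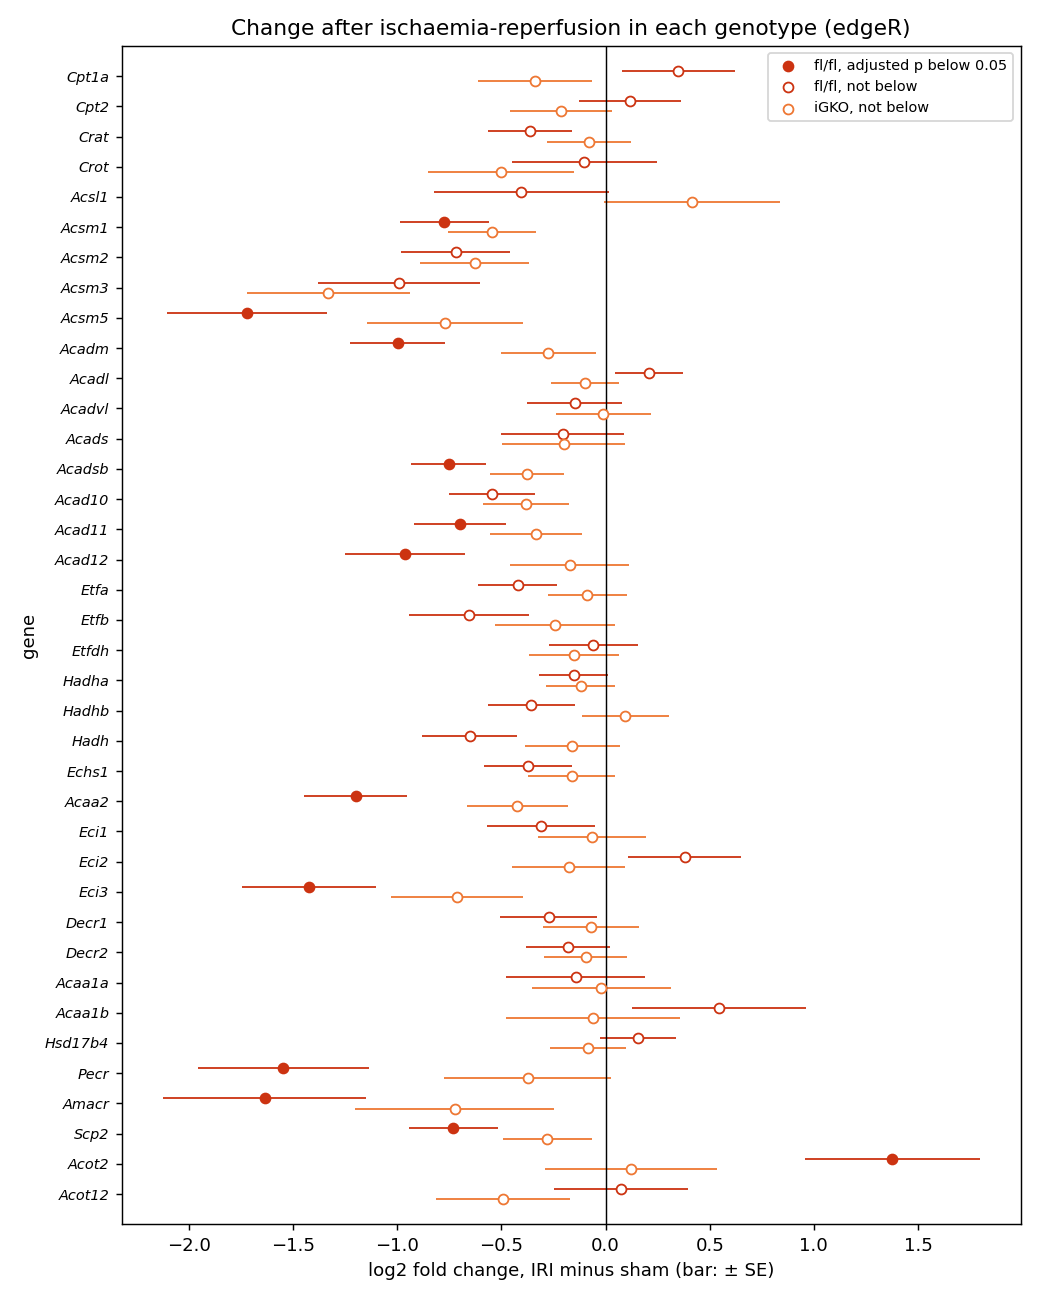
log2 fold change of IRI minus sham for each of the 38 genes (y axis) in fl/fl and in iGKO kidney, with bars of ± SE from the edgeR fit. Filled points have an adjusted p below 0.05, which 12 genes reach in fl/fl and 0 in iGKO, and in fl/fl the points run from -1.72 (Acsm5) to 1.38 (Acot2).

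The interaction, which tests whether the IRI response differed between the genotypes, called 0 members in either direction with all libraries, where 0% of all genes were called. An effect called in fl/fl and not in iGKO is therefore not shown here to differ between them. Unadjusted p-values were below 0.05 for Acadm at 0.72 ± 0.32 and Acaa2 at 0.78 ± 0.34, both higher, and for Acot2 at -1.26 ± 0.58, lower (adjusted p = 0.414, 0.413 and 0.434). At that unadjusted threshold 863 of the 17972 genes tested were higher and 1170 lower. DESeq2 called 0 members. The median interaction was 0.21 over the members and -0.02 over all genes. Without fl/fl IRI 1 the interaction was called for Acsm5, at 1.72 ± 0.30 (adjusted p = 0.00667), and for Pecr, at 1.95 ± 0.37 (adjusted p = 0.00988), when 2.15% of all genes were called lower and 2.07% higher. Proximal tubule markers then had 7 of 25 called higher, thick ascending limb markers 2 of 8 higher and injured tubule markers 7 of 9 lower. With iGKO sham 4 left out as well 6 members were called higher and 0 lower, against 3.86% and 4.3% of all genes, adding Acadm (adjusted p = 0.0494), Acad12 (0.0328), Amacr (0.0147) and Scp2 (0.0234).

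After IRI the genotypes were compared directly. This comparison shares the fl/fl IRI libraries with that of fl/fl IRI against sham, so the pair are not independent. With all libraries 0 members were called in either direction, against 0.673% of all genes called lower in iGKO and 0.178% higher. No member lacked overlap, against 3.04% of all genes lower and 2.48% higher. The median log2 difference of iGKO IRI minus fl/fl IRI was 0.27 over the members and -0.01 over all genes, with 28 members above 0. Unadjusted p-values were below 0.05 for 7 members that were higher (Acsm5, Acadm, Etfb, Acaa2, Eci1, Pecr and Scp2) and 4 that were lower (Cpt1a, Acsm3, Acot2 and Acot12). At that threshold 1606 of the 17972 genes tested were higher in iGKO and 1834 lower. Acaa2 had the smallest adjusted p, 0.104, at 0.81 ± 0.24, and DESeq2 called it higher (adjusted p = 0.0279). In the same comparison 6 of 9 injured tubule markers were called lower (median -1.93), and 0 of 25 proximal tubule (median 0.67), 0 of 8 thick ascending limb (0.99) and 0 of 7 neutrophil markers (-2.22) were called.

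The count depended on fl/fl IRI 1, which had the lowest injured tubule sum of the fl/fl IRI libraries, 3702 CPM, a level still above the 1580 to 3295 CPM of iGKO IRI. A fit without fl/fl IRI 1 keeps only the fl/fl IRI libraries with higher injury sums. In that fit 10 members were higher in iGKO, against 6.97% of all genes, and 1 was lower, against 6.6%. The 10 were the synthetase gene Acsm5 (1.71 ± 0.23), the dehydrogenase genes Acadm (0.89 ± 0.20) and Acad12 (0.89 ± 0.25), Etfb (1.05 ± 0.26), Hadh (0.74 ± 0.20), Acaa2 (1.02 ± 0.24), Eci1 (0.83 ± 0.25), Pecr (1.77 ± 0.28), Amacr (1.71 ± 0.43) and Scp2 (0.82 ± 0.17), each as log2 difference ± SE. The 1 that was lower was Cpt1a, at -0.87 ± 0.26. Adjusted p-values ran from 0.000429 for Acsm5 to 0.0420 for Eci1. Cell type markers moved in the same fit, with 14 of 25 proximal tubule markers (median 1.02) and 6 of 8 thick ascending limb markers (1.47) called higher in iGKO. Injured tubule markers had 8 of 9 called lower (-2.17) and neutrophil markers 6 of 7 (-2.56). The part of these markers in the member values was not tested. With both libraries that stood apart left out 14 members were called higher and 2 lower, against 10.1% and 10.8% of all genes, and the second lower one was Acot2 (adjusted p = 0.0467). Leaving out any other single library gave 0 members called, where at most 0.96% of all genes were called lower and 0.322% higher. With so few genes called, 0 members is not a result about the set.

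Libraries of the IRI groups differed in how far the set moved. Relative to the fl/fl sham mean the median over the 38 members was -0.17, -0.33, -1.10 and -0.39 log2 units in fl/fl IRI 1 to 4, whereas iGKO IRI 1 to 4 gave -0.18, -0.43, -0.02 and -0.02. The same median over all genes tested lay between -0.0312 and 0.0009 in every IRI library. Over the proximal tubule markers it was -0.39, -1.15, -2.28 and -1.32 in fl/fl IRI 1 to 4. In iGKO IRI 1 to 4 the marker median was -0.44, -0.64, -0.44 and -0.41. By this median the members lay less far below the fl/fl sham mean than these markers in every IRI library. In fl/fl IRI 3, 36 members lay below the fl/fl sham range and 0 above. In fl/fl IRI 4, 23 lay below and 8 above, and single members ran from -3.08 to 2.48. The median coefficient of variation over members was 14.9% in fl/fl sham, 18.04% in iGKO sham, 37.3% in fl/fl IRI and 19.3% in iGKO IRI. The greatest within fl/fl IRI was that of Pecr, 84.7%, and the smallest was that of Acadsb, 15.1%. Counts outside the sham range and coefficients of variation were not taken over all genes. They therefore do not show a trait particular to the set.

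Levels of the set and of proximal tubule markers were set side by side. The member sum was 4754 to 10000 CPM in fl/fl IRI and 7416 to 10340 CPM in iGKO IRI. Acsm2 was the largest single part of it. Its mean was 3215 CPM of a mean sum of 11080 CPM in fl/fl sham, and 1953 of 8216 CPM in fl/fl IRI. The sum and its ratios therefore weigh this gene most. Divided by the summed proximal tubule markers of the same library, the member sum was 0.279, 0.378, 0.387 and 0.438 in fl/fl IRI 1 to 4. The same ratio was 0.217 to 0.303 over the 8 sham libraries and 0.263 to 0.317 in iGKO IRI. In fl/fl IRI 2, 3 and 4 the ratio was above that of every other library, and these are the libraries with the lowest proximal marker sums. The thioesterase sum was 187, 378, 140.5 and 609 CPM in fl/fl IRI 1 to 4, and the sum of the carnitine steps was 741, 1229, 587.5 and 1788 CPM. For both sums fl/fl IRI 2 and 4 were the highest of the 16 libraries.

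**Figure D4:**
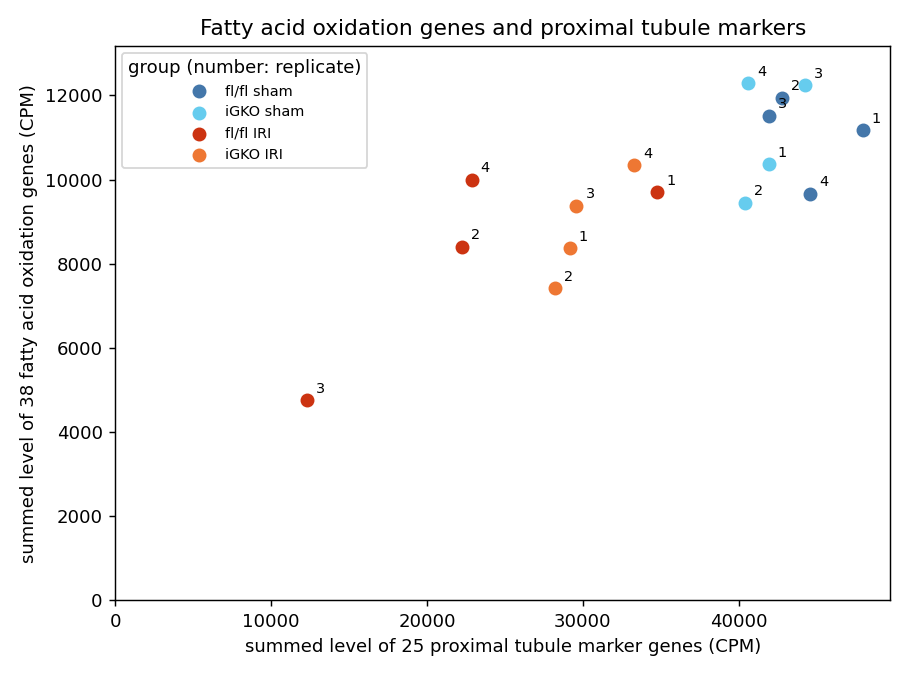
Summed CPM of the 38 fatty acid oxidation genes (y axis) against summed CPM of 25 proximal tubule markers (x axis), 1 point per library, coloured by group and numbered by replicate, both axes linear from 0. Sham libraries lie to the right at 40420 CPM or more of marker sum, and fl/fl IRI 3 lies lowest on both axes. Acsm2 is the largest single part of the sum on the y axis.

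Other genes of fatty acid oxidation were looked at in fl/fl kidney after IRI. Of 43 tested, 7 fell and 2 rose (median -0.47), against 7.01% and 8.46% of all genes. The share that rose was thus not above that of all genes. When fl/fl IRI 1 was left out, 16 of 44 fell and 3 rose, against 11.6% and 11.9% of all genes. Acox3, a peroxisomal acyl-CoA oxidase, stood at 368, 343, 399 and 349.7 CPM in fl/fl sham 1 to 4 and at 253.5, 122, 82.4 and 123 CPM in fl/fl IRI 1 to 4, without overlap. It fell by 1.33 (adjusted p = 0.00316). Acat1, the mitochondrial acetoacetyl-CoA thiolase, fell by 0.88 (0.00971), the branched-chain oxidase gene Acox2 by 1.43 (0.00975) and the peroxisomal thioesterase gene Acot3 by 1.99 (0.0102), on the log2 scale with adjusted p in parentheses. The fall of Acot3 was 2.71 without fl/fl IRI 1. With fl/fl alone in the fit Acox2 and Acot3 were no longer called. Acot3 is of the same family as Acot2, the member that rose.

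Ketone body enzymes had 4 of 7 genes called lower and 0 higher (median -0.998), against 7.01% and 8.46% of all genes. Oxct1, which starts the use of ketone bodies, stood at 731, 724, 774 and 632.5 CPM in fl/fl sham 1 to 4 and at 387, 321, 293 and 365 CPM in fl/fl IRI 1 to 4. It fell by 1.07 (adjusted p = 0.00103), and Bdh2 fell by 1.08 (0.0039). Acat1 belongs to this list too. Aacs, acetoacetyl-CoA synthetase, fell by 1.31 (0.0216), a call lost without any 1 of fl/fl sham 2 or 4 or fl/fl IRI 2, 3 or 4 (adjusted p up to 0.0699) and with fl/fl alone.

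Regulators had 4 of 21 genes called lower and 0 higher (median -0.49), against 7.01% and 8.46% of all genes. Without fl/fl IRI 1 there were 8 lower, against 11.6% of all genes. Ppargc1a, a coactivator of genes for mitochondrial oxidation, stood at 127, 107, 139 and 128 CPM in fl/fl sham 1 to 4 and at 79.6, 63.8, 43.7 and 46.5 CPM in fl/fl IRI 1 to 4, while iGKO IRI 1 to 4 had 110.0, 100.5, 118 and 83.7 CPM. All fl/fl IRI libraries were below all fl/fl sham and all iGKO IRI libraries. It fell by 1.10 (adjusted p = 0.00343), and the genotype difference after IRI was 0.82 ± 0.21 (adjusted p = 0.0634). Sirt3, a mitochondrial deacetylase, fell by 1.14 (0.00575). The nuclear receptor gene Esrrg fell by 1.02 (0.032), a call lost without any 1 of the 4 fl/fl sham libraries or fl/fl IRI 3 (adjusted p up to 0.0869) and with fl/fl alone. Klf15 fell by 1.14 (0.0486), a call kept, among the 16 fits that leave out a library, only without fl/fl IRI 1 or iGKO sham 4 (adjusted p up to 0.134 in the others).

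Targets of PPAR-alpha outside the members had 1 of 18 called lower and 3 higher (median 0.27), and uptake and storage genes 2 of 23 lower and 2 higher (median -0.37). Without fl/fl IRI 1 the counts were 2 and 3, and 4 and 2. Of all genes 7.01% were called lower and 8.46% higher with all libraries, and 11.6% and 11.9% without fl/fl IRI 1. With all libraries the uptake and storage counts were near the shares of all genes. Plin2, a coat protein of lipid droplets that is in both lists, stood at 107, 96.4, 126 and 101 CPM in fl/fl sham 1 to 4 and at 183, 1637, 454 and 4701 CPM in fl/fl IRI 1 to 4. Its levels in iGKO IRI 1 to 4 were 249, 180.2, 241 and 135 CPM. Its rise in fl/fl was 4.02 ± 0.69 (adjusted p = 0.00221), and 2.82 without fl/fl IRI 4. Between genotypes after IRI it was lower in iGKO by 3.11 ± 0.67 on the log2 scale (adjusted p = 0.0437), a call kept, among the 16 fits that leave out a library, only without fl/fl IRI 1 or iGKO sham 4 (adjusted p up to 0.139 in the others). The difference was -1.91 without fl/fl IRI 4. Hilpda, an inhibitor of lipid droplet breakdown, rose by 2.69 (0.00275), and the heart-type fatty acid binding protein gene Fabp3 fell by 1.71 (0.00281).

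Pdk4, a kinase that holds back pyruvate oxidation, stood at 36.5, 99.3, 84.9 and 2063 CPM in fl/fl IRI 1 to 4 against 11.7, 44.2, 82.7 and 16.4 CPM in fl/fl sham. Its rise of 3.88 (0.03) was lost without fl/fl IRI 4 and without fl/fl sham 1, 2 or 4 (adjusted p up to 0.450) and with fl/fl alone, and DESeq2 gave it no adjusted p. The rise was 0.92 without fl/fl IRI 4 and 4.56 without fl/fl sham 3. Angptl4, an inhibitor of lipoprotein lipase, rose by 1.98 (0.0221), lost without fl/fl sham 1 or 4 or fl/fl IRI 4 (adjusted p up to 0.0958) and with fl/fl alone, and the value was 1.33 without fl/fl IRI 4. Lpl itself fell by 1.155 (0.0397), lost without fl/fl sham 1, 3 or 4 or fl/fl IRI 2, 3 or 4 (adjusted p up to 0.136) and with fl/fl alone. Adipocyte markers, from cells rich in Lpl, summed to 266, 18.8, 586 and 169 CPM in fl/fl sham 1 to 4 and 161, 97.1, 42.4 and 76.7 CPM after IRI, and their part in the Lpl value was not tested. Cyp4a14, a fatty acid omega-hydroxylase, fell by 1.49 (0.0222) in fl/fl, lost without fl/fl sham 2 or 4 or fl/fl IRI 3 or 4 (adjusted p up to 0.0803) and with fl/fl alone. It stood at 409, 280.0, 117 and 285.5 CPM in fl/fl IRI 1 to 4, compared with 1285, 705, 1106 and 1005 CPM in iGKO IRI 1 to 4, and was higher in iGKO by 1.91 ± 0.41 (adjusted p = 0.0453). That call was kept without fl/fl sham 2, fl/fl IRI 1 or iGKO sham 4 and lost in the other fits that leave out a library (adjusted p up to 0.138).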

How the data were processed

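RNA was sequenced from 16 kidney cortex samples, 4 in each of 4 groups defined by genotype and operation. The deposited values are raw counts of reads per gene, whole numbers with no normalization. Per the submitters' processing notes the tools were STAR 2.7.9a, cutadapt 1.16, DESeq2 1.36.0, featureCounts 1.6.3, Picard, FastQC and MultiQC, on the build GRCm39 (mm39), with the part played by each tool not stated. The annotation release and whether counting used strand are not given in the sources used here. Per the labels' protocols the libraries were stranded and depleted of ribosomal RNA, and all carried the same batch label. Total counts of 12704273 to 18816343 per library set the precision.

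Tests on the counts as deposited used edgeR 4.0.16 (R 4.3.3) with filterByExpr by group, TMM, a quasi-likelihood fit with 1 coefficient per group over all 16 libraries, 5 two-sided contrasts, and Benjamini-Hochberg adjustment over 17972 genes with a threshold of 0.05. A gene past it is called. The standard error (SE) is the log2 fold change divided by the root of F. The script was tested on simulated data. Alternatives were DESeq2 1.42.0 size factors, the DESeq2 Wald test, no filter, the compared groups alone, a replicate block, each library left out, and fl/fl IRI 1 and iGKO sham 4 left out together.

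Symbols were matched by identifier to GENCODE on GRCm38, whose exons gave the lengths and the shared 50-base stretches. Reads of identifiers without a symbol were 0.840% to 1.77% of a library. Values in every library are given for each called member, members of opposite sign to their role group are named, and of other lists only called genes with the 4 smallest p per list and comparison are named. The members and lists were chosen with earlier results of these data known. Replicates of a group were no duplicates, since counts of any pair differed by more than sampling noise (chi-square per degree of freedom at least 8.99).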

Additional observations from a re-analysis of the deposited data

Results flagged for a closer look

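A library was set apart from the other 3 of its group, by a gap to its neighbour above 0.829 of the group's range, in 10 of 152 groups of 4 values for single members. Chance alone gives about 1 in 20. iGKO sham 4 gave 5 of the 10. It had high levels of Acadvl at 565 CPM (next 389 CPM), Acads at 278 CPM (140.4 CPM), Acad10 at 167 CPM (108 CPM) and Acaa1a at 282 CPM (112 CPM), and a low level of Cpt2 at 111 CPM (168 CPM). This is the library in which mitochondrially encoded genes took 0.443% of counts, and the part of that share in these levels was not tested.

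In fl/fl sham 2, Acaa2 stood at 265 CPM (next 172 CPM) and Acot2 at 99.1 CPM (next 42.5 CPM). In fl/fl IRI 3, Hsd17b4 was at 199.8 CPM (next 329 CPM). In iGKO IRI 2, Etfdh was at 129 CPM (next 169.6 CPM), and in iGKO sham 1, Crat was at 141.5 CPM (next 165 CPM).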

How the results depend on the processing

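No member changed direction past the threshold in any alternative, and 5 of the 12 members called in fl/fl (Acsm5, Acadm, Acadsb, Acaa2 and Eci3) were called in every one of the 16 fits that leave out a library and the 6 others. In fl/fl after IRI the members called lower, 11, were 6 with the compared groups fitted alone and 17 without both libraries that stand apart, and the 1 called higher was 0 with the groups alone and 0 with the replicate block. All genes called lower, 1259, became 610 and 2583, and those called higher, 1520, became 916 and 2925. In iGKO after IRI, DESeq2 called 5 genes lower and 38 higher, and 4 were higher with no filter, against 0. Between genotypes after IRI, members called lower rose from 0 to 2 and those called higher from 0 to 14 without both libraries, and DESeq2 called 1 higher. All genes called lower, 121, were 79 with DESeq2 size factors, 534 by DESeq2, 243 with no filter, 0 with the groups alone, 0 with the replicate block and 1973 without both libraries. Those called higher, 32, were 408 by DESeq2, 109 with no filter, 0, 0 and 1843 in the last 3. In the interaction 6 members were called higher without both libraries, against 0. All genes then gave 784 lower and 705 higher, DESeq2 gave 81 and 31, no filter gave 15 lower and the replicate block 1 higher, against 0 and 0. The cause was not tested.

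With 1 library left out, members called lower in fl/fl ranged from 5 to 16 and higher from 0 to 1, and all genes from 564 to 2141 lower and 813 to 2194 higher. Between genotypes after IRI members ranged from 0 to 1 lower and 0 to 10 higher, and all genes from 0 to 1213 and 0 to 1282. In the interaction members ranged from 0 to 0 lower and 0 to 2 higher, and all genes from 0 to 395 and 0 to 381. In iGKO after IRI all genes called higher ranged from 0 to 1, and the other ranges there and after sham were 0 to 0. The fit on the compared groups alone was not run for the interaction.

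No pairing by replicate number was seen: of 24 same-numbered pairs 6 had a correlation over 0.1 (range -0.349 to 0.429), and 5 correlated best with their own number. This check cannot exclude a pairing that leaves little trace in expression. With the replicate block 10 members were called lower in fl/fl, and Acad12 (adjusted p = 0.0574) and Acot2 (0.0531) were not called. Of the other genes named, Lpl (0.0569), Klf15 (0.0591) and Pdk4 (0.0975) were not called in fl/fl, nor Plin2 (0.11) and Cyp4a14 (0.0781) between genotypes. Beyond counting error, 4 libraries a group limit what small changes can be called.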
